A study of Mus musculus with 7 samples.

Results

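Genes known as regulators of blood stem and progenitor cells (Myb, Gata2, Meis1, Hoxa9, Mecom, Hlf, Sox4, Cd27 and Mycn) were followed in RNA of sorted mouse marrow cells. They were taken by exact gene name, and all 9 were found among the 50435 rows of the deposited table. The study compared 3 samples from mice given diphtheria toxin (DT) with 4 samples from mice given PBS. DT-treated mice received 200 ng of toxin in 100 µl of PBS by intraperitoneal injection, PBS-treated mice the same volume of PBS alone, and both groups were harvested 1 day later. All mice of both groups were irradiated wild-type recipients that carried Zbtb46dtr bone marrow and had been left for 8 weeks after the transplant. In that marrow the diphtheria toxin receptor stands under Zbtb46, a gene used to mark classical dendritic cells, so the toxin was given to remove those cells. No age or sex is given. A transplant of this kind replaces blood cells, so the receptor is carried by donor-derived blood cells and not by the vessels of the recipient. Cells were sorted as positive for CD31 and negative for Sca1, CD45, Ter119, Gr1 and CD11b, a gate meant for sinusoidal endothelial cells, which line the thin-walled venous vessels of the marrow. The samples are described as biological replicates.

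Blood stem cells renew themselves and give rise to progenitors that commit step by step to the red cell, platelet, myeloid and lymphoid lineages. A small set of transcription factors keeps this pool, and most of them fade as cells mature, although several are used again in a single lineage: Myb and Sox4 in B cell precursors, Gata2 in mast cells, basophils and early red cell precursors. Some of the set, among them Gata2, Meis1 and Mecom, are also known from endothelial cells.

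Values are in RPM, reads scaled by the size of the library. The most frequent low value of each library was taken as 1 read, which put the libraries at 33200000 to 51200000 reads and a signal of 3 reads at 0.0585 to 0.0904 RPM. Summed RPM of marker genes showed mostly blood cell RNA. Endothelial genes were near the floor: the 12 on the list, none of them at 0 in every library, summed to 10.2 to 18.7 RPM in DT and 1.44 to 9.35 RPM in PBS. Of these, 3 reached the level for testing, each only through DT, with a mean under 1 RPM in PBS. The receptor gene Flt1, with a call as higher, was at 2.08 RPM in DT and 0.206 RPM in PBS. Cdh5, the endothelial cadherin, averaged 2.10 ± 1.18 RPM in DT (SD, n = 3) and 0.811 ± 1.27 RPM in PBS (SD, n = 4). Esam, a junction protein, averaged 2.81 ± 1.96 RPM in DT and 0.813 ± 1.16 RPM in PBS. The 11 neutrophil genes all rose and summed to 54760 to 58572 RPM in DT and 1631 to 3094 RPM in PBS, led by Ngp and S100a8. The 5 genes of primary granules, led by Mpo and Elane, all rose as well and summed to 6801 to 7449 RPM in DT and 472 to 1658 RPM in PBS. T and natural killer cell genes had 12 rises among 14, with sums of 385 to 402 RPM in DT and 31.1 to 76.8 RPM in PBS and with Nkg7 and Lck as the most abundant. Most of the genes with these rises averaged under 1 RPM in PBS and were tested only through DT. Of 8 mast cell and basophil genes other than Gata2, led by Prss34 and Hdc, 6 rose, with sums of 904 to 1833 RPM in DT and 23.2 to 208 RPM in PBS. Il1rl1 on that list was lower in DT without a call, at 2.51 RPM in DT and 14.6 RPM in PBS. Of 14 B-lineage genes, led by Cd79a and Cd79b, 11 fell, with sums of 3777 to 4226 RPM in DT and 5997 to 9063 RPM in PBS. Of 14 erythroid genes, led by Car2 and Car1, 10 fell, while Hbb-bs, Hba-a1 and Alas2, of hemoglobin and heme synthesis, rose. They summed to 1569 to 2087 RPM in DT, and to 1028 RPM in PBS replicate 1 against 6931 to 11312 RPM in the other PBS libraries. The make-up of this sum differed: the 3 genes that rose held 78.9% to 85.4% of it in DT and 5.12% to 18.8% in PBS. Megakaryocyte genes, led by Pf4 and Ppbp, had no call among 8 tested, with sums of 53.0 to 165 RPM in DT and 59.5 to 249 RPM in PBS. Plasmacytoid dendritic cell genes had 2 rises and 1 fall among 7, with sums of 399 to 502 RPM in DT and 396 to 713 RPM in PBS. Most of that sum was Ly6d, which had no call, and Tcf4, which fell to 98.9 RPM in DT against 170 RPM in PBS. The rises were Siglech, at 40.9 RPM in DT and 3.69 RPM in PBS, and Ccr9, at 12.0 RPM in DT and 1.37 RPM in PBS.

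The question for the 9 genes was how their RNA in the sorted samples differed 1 day after DT. Myb and Sox4 fell, Cd27 and Hlf rose, and Gata2, Meis1, Hoxa9 and Mycn did not pass the test. Hlf was tested only through its level in DT, the group where it is high. Mecom was too low to be tested. The test was limma on log2(RPM + 1) across 14100 genes, those whose mean over the 7 libraries reached 1 RPM, with Benjamini-Hochberg adjustment over all of them and a threshold of 0.05. It is two-sided, and its changes understate those of low genes. Among all tested genes 32.0% passed, 13.4% higher and 18.6% lower in DT, so that 4 calls among 8 tested members, chosen with earlier results of these data known, are not read as a result about the set. The groups did not overlap for the same 4 members, and for 40.9% of all tested genes. The median log2 change was -0.18 over the 8 tested members and -0.23 over all tested genes. With median-ratio scaling the median of all genes was -0.01 and the split of calls moved to 2397 higher and 1259 lower, against 1894 higher and 2622 lower as deposited. Myb, Sox4, Cd27 and Hlf kept their direction and call under that scaling. In a bulk sample, fewer cells of a type and less RNA per cell cannot be told apart.

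The 250 bases before the RefSeq start of the 4 genes that passed are shown (GRCm38.p6, RefSeq), because these genes moved in pairs and several members bind DNA. They were searched on both strands for the letters TAACNG, which Myb binds, for AGATAA or else TGATAA, known from GATA proteins, and for TGACAG, known from Meis proteins. The search also took in TTTATNG for Hox proteins, TTACNTAA for the PAR bZIP family, CACGTG for Myc proteins and ACAAAG for Sox proteins. Capitals mark a match.
Myb, chr10:21160985-21161234, minus strand: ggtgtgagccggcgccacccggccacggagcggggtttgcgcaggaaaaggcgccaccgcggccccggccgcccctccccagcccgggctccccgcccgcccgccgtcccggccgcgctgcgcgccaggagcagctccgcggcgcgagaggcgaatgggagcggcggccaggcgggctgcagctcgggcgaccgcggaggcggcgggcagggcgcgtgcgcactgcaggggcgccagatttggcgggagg
Sox4, chr13:28953700-28953949, minus strand: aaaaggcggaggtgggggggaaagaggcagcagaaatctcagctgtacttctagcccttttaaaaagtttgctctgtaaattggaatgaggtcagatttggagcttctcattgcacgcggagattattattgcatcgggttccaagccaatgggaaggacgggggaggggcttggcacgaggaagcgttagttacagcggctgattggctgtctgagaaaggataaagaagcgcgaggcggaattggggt
Hlf, chr11:90390918-90391167, minus strand: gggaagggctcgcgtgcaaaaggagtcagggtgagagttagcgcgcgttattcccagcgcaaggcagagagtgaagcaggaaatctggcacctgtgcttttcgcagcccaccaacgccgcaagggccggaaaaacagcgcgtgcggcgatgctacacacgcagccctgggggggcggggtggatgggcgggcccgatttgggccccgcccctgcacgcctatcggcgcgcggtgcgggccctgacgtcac
Cd27, chr6:125237028-125237277, minus strand: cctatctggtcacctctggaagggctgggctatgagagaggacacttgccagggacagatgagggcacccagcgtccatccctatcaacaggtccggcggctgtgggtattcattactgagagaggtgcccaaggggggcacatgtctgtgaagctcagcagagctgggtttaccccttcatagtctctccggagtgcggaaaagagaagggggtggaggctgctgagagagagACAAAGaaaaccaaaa

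The windows of Myb and Sox4, which both fell, were unlike in base composition. The Myb window was 81.2% G or C with 40 CG pairs, and the Sox4 window 50.8% with 11, beside medians of 52.4% G or C and 6 CG pairs over 32841 such windows. The Hlf window was 67.2% G or C with 26 CG pairs and the Cd27 window 56.0% with 5. Of the 4 windows the Cd27 one held a match, ACAAAG at 16 to 11 bases before the start, letters found in 16.5% of all windows. The other motifs occur in 2.06% (TTACNTAA) to 19.8% (TAACNG) of windows. These are matches of letters in short windows and say nothing of binding.

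**Figure D1:**
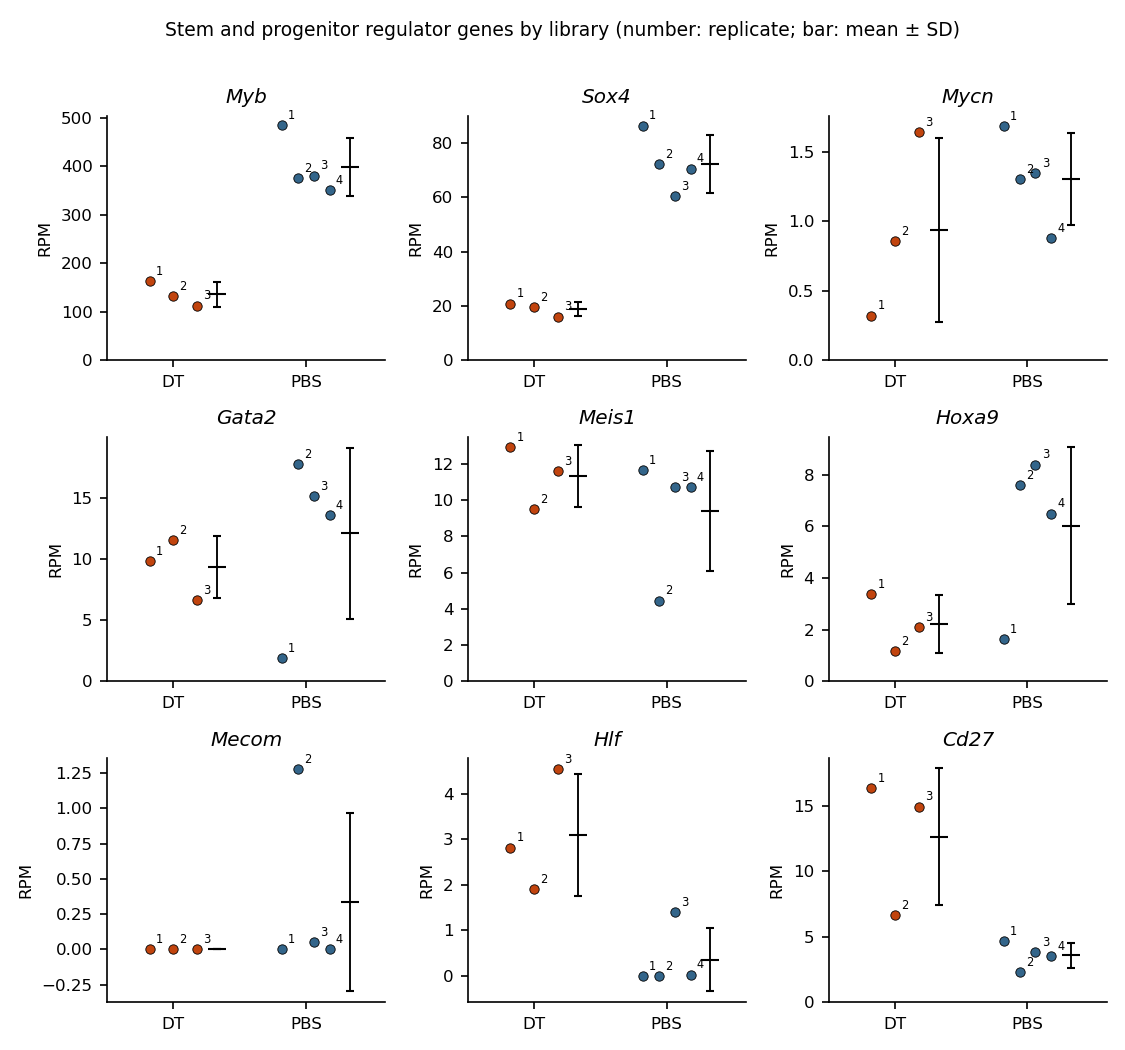
RPM of the 9 genes in each of the 3 DT (left) and 4 PBS (right) libraries, with the replicate number beside each point and the mean ± SD as a bar. The groups do not touch for Myb, Sox4, Hlf and Cd27, and PBS replicate 1 lies at 1.90 RPM for Gata2 and 1.63 RPM for Hoxa9, below the other PBS libraries.

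Myb, a transcription factor that progenitors of most blood lineages need in order to divide and stay immature, was the most abundant of the set. It was at 163, 133 and 113 RPM in the DT libraries, against 485, 375, 381 and 351 RPM in the PBS libraries. Every DT library was below every PBS library, which was so for 24.7% of all tested genes. Myb averaged 136 ± 25.1 RPM in DT (SD, n = 3) and 398 ± 59.5 RPM in PBS (SD, n = 4) and fell by 1.55 on the log2 scale (SE 0.17, 95% interval -1.92 to -1.17, limma, adjusted p = 0.000140). Relative to the median of all genes the change was -1.32. Its mm10 locus (GENCODE vM21) is chromosome 10, 21124935 to 21160984. An antisense gene, Gm26577, shares 6.26% of its exonic bases but stayed between 0.473 and 3.00 RPM in every library. Myb's RPM equalled 2.83% to 4.31% of the summed RPM of the B-lineage markers in DT and 3.87% to 6.26% in PBS, so this ratio overlapped between the groups. The part of the B-lineage markers in the change of Myb was not tested.

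Sox4, a transcription factor of the SoxC group with a role in B cell precursors, was at 21.0, 19.5 and 16.1 RPM in the DT libraries, against 86.5, 72.3, 60.4 and 70.6 RPM in the PBS libraries. The groups were apart by a wide margin, with the highest DT library well below the lowest PBS library. Sox4 averaged 18.9 ± 2.47 RPM in DT (SD, n = 3) and 72.5 ± 10.7 RPM in PBS (SD, n = 4), and it fell by 1.88 on the log2 scale (SE 0.18, limma, adjusted p = 5.79e-05). It lies on chromosome 13 at 28948919 to 28953713. The noncoding gene Gm26735 runs across it on the other strand and shares 54.6% of the exonic bases of Sox4. No source used here says how the authors' counting treated strand, so reads of this pair cannot be told apart with certainty. Gm26735 was at 75.5, 75.5 and 61.2 RPM in DT, against 328, 206, 195 and 254 RPM in PBS, and it also fell (by 1.76 on the log2 scale, limma, adjusted p = 0.000147). The pair together averaged 89.6 ± 10.7 RPM in DT (SD, n = 3) and 318 ± 70.2 RPM in PBS (SD, n = 4), which is 3.55-fold lower in DT. Sox4 alone was 0.404% to 0.555% of the B-lineage sum in DT and 0.762% to 1.21% in PBS, a ratio whose groups did not overlap and which was not tested.

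Mycn, a Myc family member that acts together with Myc in stem cells, was near 1 RPM throughout. It was at 0.322, 0.856 and 1.64 RPM in DT and at 1.69, 1.30, 1.34 and 0.880 RPM in PBS, or 13 to 84 reads per library. The groups overlapped, and the log2 change was -0.29 with a 95% interval of -1.01 to 0.43 (limma, adjusted p = 0.513). Its chromosome 12 locus runs from 12936093 to 12941914.

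Gata2, the GATA factor of stem cells and of mast cells, basophils and early red cell precursors, was at 9.85, 11.6 and 6.62 RPM in DT, against 1.90, 17.7, 15.1 and 13.6 RPM in PBS. PBS replicate 1 was below all DT libraries and the other 3 PBS libraries were above them. The means were 9.34 ± 2.51 RPM in DT (SD, n = 3) and 12.1 ± 7.01 RPM in PBS (SD, n = 4), and the change missed the threshold at -0.07 on the log2 scale (95% interval -1.38 to 1.24, limma, adjusted p = 0.939). Its direction turned under median-ratio scaling, to 0.15. Without PBS replicate 1 the change was -0.70 with an adjusted p of 0.0605 (limma). Gata2 spans 88193891 to 88207032 on chromosome 6.

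Among the PBS libraries Gata2 and the erythroid markers were low together in PBS replicate 1, and Gata2 equalled 0.157% to 0.202% of their summed RPM. In DT the ratio was 0.365% to 0.628%. Since the hemoglobin and heme genes that rose made up most of that sum in DT, it was also taken over the other 11 erythroid genes. Gata2 was then 2.498% to 2.973% of the sum in DT and 0.166% to 0.228% in PBS, and the groups did not overlap on either sum. The genes left out were picked by their rise in these same data, which by itself lifts the ratio most in DT. Within DT the order of Gata2 differed from that of the full sum: DT replicate 3 was lowest in Gata2 but not in the sum. The mast cell and basophil markers were higher in DT as a sum, with sums of 1833, 1157 and 904 RPM in the DT libraries against 208, 107, 174 and 23.2 RPM in the PBS libraries. Among the PBS libraries their order differed from that of Gata2, which was lowest where that sum was highest. The part of either marker list in the level of Gata2 was not tested.

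**Figure D2:**
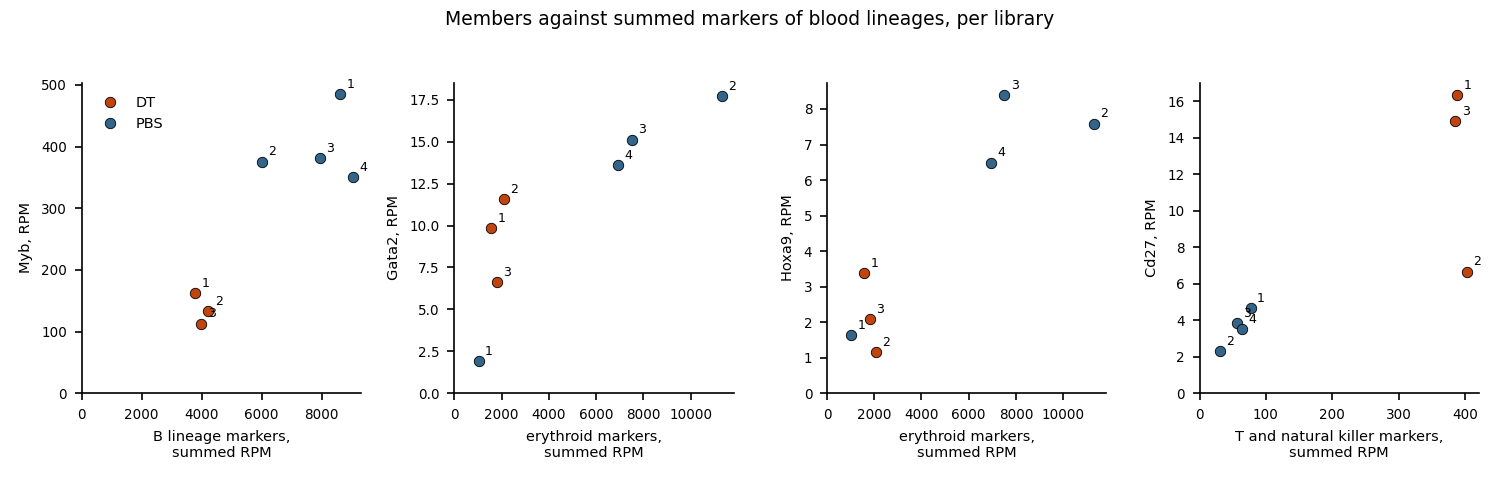
RPM of Myb, Gata2, Hoxa9 and Cd27 against the summed RPM of a marker list in the same library, with 3 DT points (orange) and 4 PBS points (blue) numbered by replicate. Gata2 and the erythroid sum over all 14 genes are both lowest in PBS replicate 1 among the PBS libraries; in DT most of that sum is Hbb-bs, Hba-a1 and Alas2, which rose, so its make-up differs between the groups.

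Hoxa9 and Meis1 encode homeobox proteins that bind DNA together and sustain stem cells, and both are overactive in many leukemias. Hoxa9 was at 3.39, 1.17 and 2.09 RPM in DT, against 1.63, 7.59, 8.38 and 6.49 RPM in PBS. As for Gata2, PBS replicate 1 was the exception: it lay within the range of DT, while the other 3 PBS libraries lay above it. Hoxa9 averaged 2.21 ± 1.12 RPM in DT (SD, n = 3) and 6.02 ± 3.03 RPM in PBS (SD, n = 4), and the log2 change of -1.03 missed the threshold (SE 0.47, limma, adjusted p = 0.120). Without PBS replicate 1 the change was -1.45 and passed (limma, adjusted p = 0.00735), as it did with sample weights (-1.25, adjusted p = 0.0208). Hoxa9 equalled 0.0558% to 0.216% of the full erythroid sum in DT and 0.0671% to 0.158% in PBS, which overlap. Over the 11 erythroid genes other than Hbb-bs, Hba-a1 and Alas2 it was 0.267% to 1.02% in DT and 0.0711% to 0.195% in PBS, with no overlap. That separation arose only after genes were left out by their rise in these same data, and it is not read as a result. The part of the erythroid markers in its level was not tested. The gene lies on chromosome 6 at 52223100 to 52231089.

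Meis1 was at 12.9, 9.51 and 11.6 RPM in DT and at 11.7, 4.46, 10.7 and 10.7 RPM in PBS. The groups overlapped, and here PBS replicate 2, not PBS replicate 1, was the low library. Its means were 11.3 ± 1.71 RPM in DT (SD, n = 3) and 9.39 ± 3.32 RPM in PBS (SD, n = 4), a log2 change of 0.31 with a 95% interval of -0.43 to 1.05 (limma, adjusted p = 0.498). Meis1 occupies 18879817 to 19018985 on chromosome 11. Antisense and same-strand predicted genes that share its exons stayed at or below 1.34 RPM.

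Mecom, which encodes the zinc finger factor Evi1 needed by long-term stem cells, was listed at 0 in all 3 DT libraries and in PBS replicates 1 and 4. It was at 1.28 RPM in PBS replicate 2 and 0.0527 RPM in PBS replicate 3, which is 50 reads and 2 reads. A count of 0 in a DT library allows up to 0.0585 to 0.0742 RPM. With the signal resting on 1 library, no fold is given. Without the filter on low values the log2 change was -0.32 (limma, adjusted p = 0.572). Mecom spans 29951296 to 30548008 on chromosome 3.

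Hlf, a PAR bZIP transcription factor whose expression is narrowly tied to stem cells within marrow, was at 2.82, 1.90 and 4.55 RPM in DT, against 0, 0, 1.40 and 0.0259 RPM in PBS. This is 114, 80 and 233 reads in DT and 0, 0, 53 and 1 reads in PBS. Every DT library was above every PBS library, as was the case for 16.1% of all tested genes. Hlf averaged 3.09 ± 1.34 RPM in DT (SD, n = 3) and 0.356 ± 0.694 RPM in PBS (SD, n = 4) and rose by 1.66 on the log2 scale (SE 0.40, limma, adjusted p = 0.0122). It passed the filter only through its level in DT, since its PBS mean was under 1 RPM. The call was lost without DT replicate 3 (adjusted p = 0.0552, limma) and the change depended on the pseudocount, at 3.85 with a pseudocount of 0.1 and 0.59 with 5. Hlf lies on chromosome 11 at 90336536 to 90390895.

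Cd27, a surface receptor of the tumor necrosis factor receptor family, separates progenitors from the most primitive stem cells and is also carried by T, B and natural killer cells. It was at 16.3, 6.66 and 14.9 RPM in DT, against 4.67, 2.33, 3.85 and 3.52 RPM in PBS. The groups did not overlap, although DT replicate 2 lay closer to PBS than to the other DT libraries. Cd27 averaged 12.6 ± 5.23 RPM in DT (SD, n = 3) and 3.59 ± 0.972 RPM in PBS (SD, n = 4), a 3.52-fold rise (log2 change 1.51, SE 0.35, limma, adjusted p = 0.0102). Without DT replicate 1 the adjusted p was 0.0523 and without DT replicate 3 it was 0.0550 (limma). Cd27 equalled 1.65% to 4.21% of the summed T and natural killer cell markers in DT and 5.51% to 7.47% in PBS. That separation rested on 1 gene, Nkg7, which held 64.6% to 75.9% of the sum in DT and 31.7% to 63.0% in PBS. Without Nkg7 the ratio was 4.67% to 17.5% in DT and 8.07% to 16.4% in PBS, and the groups overlapped. The part of these cells in the rise was not tested. Cd27 lies on chromosome 6 at 125232622 to 125237010. Vamp1, which overlaps its span on the other strand, shares 0 exonic bases with it and was at 10.5 ± 3.93 RPM in DT (SD, n = 3) and 15.4 ± 1.93 RPM in PBS (SD, n = 4).

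**Figure D3:**
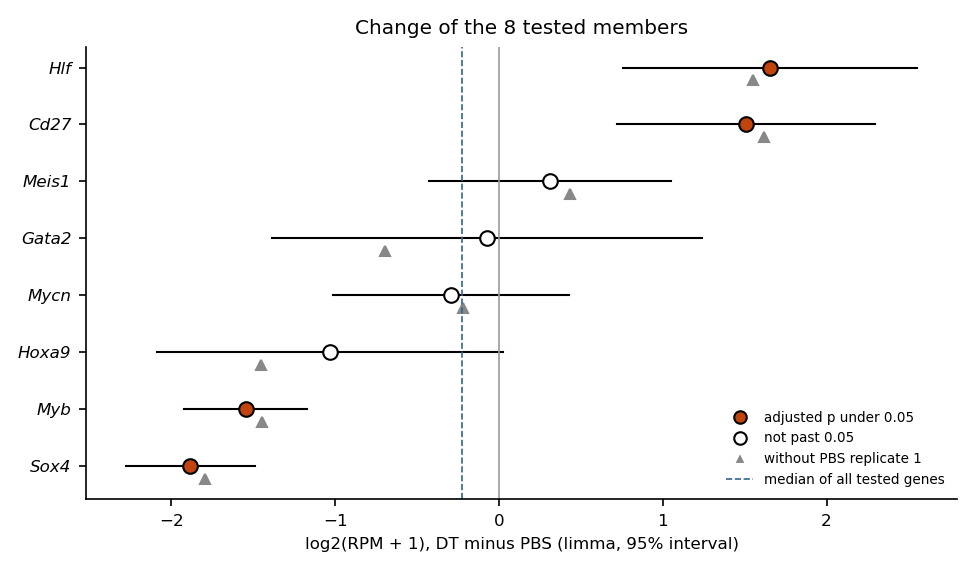
Change in log2(RPM + 1), DT minus PBS, of the 8 tested genes with 95% limma intervals; orange points passed an adjusted p of 0.05, grey triangles leave out PBS replicate 1, and the dashed line is the median of all tested genes (-0.23). Leaving out that library moved Gata2 to -0.70 and Hoxa9 to -1.45, and left Myb, Sox4, Cd27 and Hlf on their side of 0. Hlf was tested only through its level in DT.

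The order of levels can be compared between genes per kilobase of exon (RPM per kb, GENCODE vM21 exon unions). In DT it ran Myb, Cd27, Sox4, Gata2, Meis1, Hlf, Hoxa9, Mycn and Mecom, with means of 15.2 RPM per kb for Myb, 5.43 for Cd27, 3.93 for Sox4, 1.73 for Gata2 and 1.08 for Meis1. In PBS it ran Myb, Sox4, Gata2, Cd27, Hoxa9, Meis1, Mycn, Hlf and Mecom, with 44.6 RPM per kb for Myb, 15.1 for Sox4 and 2.24 for Gata2. In DT the libraries of Cd27 and Sox4 overlapped per kb, as did those of Gata2 and Meis1 and the neighbours from Hlf to Mycn. In PBS the neighbours from Gata2 to Mycn overlapped, and so did Hlf and Mecom.

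Relatives and partners of the 9 genes were examined as lists, which took in 114 genes of the table, 88 of them tested. Of these 13 rose and 27 fell (14.8% and 30.7%, beside 13.4% and 18.6% of all tested genes), with a median log2 change of -0.35. The same shares of all tested genes are the background for each list below, and some genes are shared between lists. Of the rises 4 were tested only through their level in DT (Thy1, Gata3, Nfil3 and Sox13, under 1 RPM on average in PBS), and of the falls 2 only through PBS (Zfpm1 and Sox6, under 1 RPM on average in DT). The GATA factors and cofactors had 5 falls and 1 rise among 7 tested genes and a median log2 change of -1.37. Gata1 and Tal1, both factors of red cell precursors, were among the falls. Gata1 averaged 8.96 ± 1.42 RPM in DT (SD, n = 3) and 107 ± 70.3 RPM in PBS (SD, n = 4). PBS replicate 1 was at 14.8 RPM for Gata1, against 103 to 183 RPM in the other PBS libraries. Tal1 averaged 1.31 ± 1.24 RPM in DT and 15.0 ± 10.3 RPM in PBS. For Tal1 the groups overlapped, since PBS replicate 1 lay within the DT range of 0.566 to 2.73 RPM. Gata1 is also on the erythroid marker list, where 10 of 14 genes fell in the same libraries, so the 2 lists are not separate, and the part of the erythroid markers in the falls was not tested. Zfpm1, the GATA cofactor Fog1, was at 0.934 ± 0.332 RPM in DT (SD, n = 3) and 5.31 ± 1.74 RPM in PBS (SD, n = 4), and was tested only through PBS. Cbfa2t3, a corepressor of that complex, fell to 62.1 ± 11.5 RPM in DT, against 127 ± 12.5 RPM in PBS, and Ldb1, its bridging protein, to 14.0 ± 1.15 RPM in DT, against 40.1 ± 15.9 RPM in PBS. The falls numbered 3 without a filter and with voom on estimated reads, where weights follow the read count fitted for each gene and library. The single rise, Gata3, named after its values were seen, averaged 3.29 RPM in DT and 0.786 RPM in PBS, and no rise passed on that list under 9 of 17 alternatives.

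Stem cell transcription factors had 5 falls and 1 rise among 16 tested genes. Tal1 and Ldb1 were among these falls and are also counted on the GATA list, so the falls of these lists are not separate. Bcl11a, also a B-lineage factor, was at 36.1, 36.7 and 36.2 RPM in DT, against 80.8, 167, 131 and 132 RPM in PBS (limma, adjusted p = 0.000382). Gfi1b, a repressor in red cell and platelet precursors, fell by 3.52 on the log2 scale, to 8.60 ± 2.26 RPM in DT (SD, n = 3) against 136 ± 93.2 RPM in PBS (SD, n = 4). The single rise was Egr1, an early response gene, and the rises numbered 3 with median-ratio scaling and 0 without DT replicate 1 or DT replicate 3. The falls numbered 3 without either of these libraries. The list of Myb relatives and coactivators, which also held the pseudokinase Trib2, had 3 falls and no rise among 5. Trib2 was among the falls, at 35.4 ± 0.981 RPM in DT against 72.5 ± 7.27 RPM in PBS. Crebbp, a histone acetylase that Myb recruits, fell by 0.56 and Mybl2, a cell cycle relative of Myb, by 0.70 on the log2 scale. With median-ratio scaling or without DT replicate 3 this list had 1 fall.

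The list of the Kmt2a complex and of chromatin factors that act on Hoxa9 and Meis1 had 6 falls and no rise among 15 tested genes. Kmt2a, the histone methyltransferase that keeps Hoxa9 and Meis1 active, was at 38.6, 57.4 and 46.1 RPM in DT, against 138, 123, 107 and 107 RPM in PBS (limma, adjusted p = 0.000456). Psip1, which tethers that complex to chromatin, fell by 1.34 and Ezh2, a Polycomb methyltransferase, by 1.32 on the log2 scale. Hox genes themselves were scarce: of 16 others in the table, 11 stayed under 1 RPM in all libraries, among them 4 at 0 in every library. Among the tested Hox genes and TALE partners, Pbx4 and Tgif1 fell. Pbx4 averaged 1.69 RPM in DT and 6.51 RPM in PBS, and Tgif1, a related repressor, averaged 24.3 RPM in DT and 39.7 RPM in PBS. The falls of that list numbered 1 under 8 alternatives.

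Surface genes of stem and progenitor cells had 6 rises and 1 fall among 14 tested genes and a median log2 change of 0.81. Ifitm1, a small membrane protein, was at 83.2, 78.5 and 72.0 RPM in DT, against 4.95, 5.78, 9.12 and 7.05 RPM in PBS, and rose by 3.38 on the log2 scale (limma, adjusted p = 6.31e-06). Ly6a, which encodes the Sca1 antigen that the sort excluded, rose to 22.2 ± 8.23 RPM in DT (SD, n = 3), against 3.21 ± 1.36 RPM in PBS (SD, n = 4). Cd244, a receptor also found on natural killer cells, rose to 27.4 ± 5.22 RPM in DT, against 6.18 ± 2.77 RPM in PBS. The single fall was Cd93, a receptor of early progenitors, and without PBS replicate 1 the falls numbered 2. In the same libraries the summed markers were 22.1-fold higher in DT for neutrophils, 8.10-fold for primary granules, 10.1-fold for mast cells and basophils and 6.86-fold for T and natural killer cells. The last of these rested largely on Nkg7, which held 64.6% to 75.9% of that sum in DT. Without Nkg7 the T and natural killer sums were 93.5 to 143 RPM in DT and 15.5 to 43.6 RPM in PBS. The part of these cell types in the rises was not tested.

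**Figure D4:**
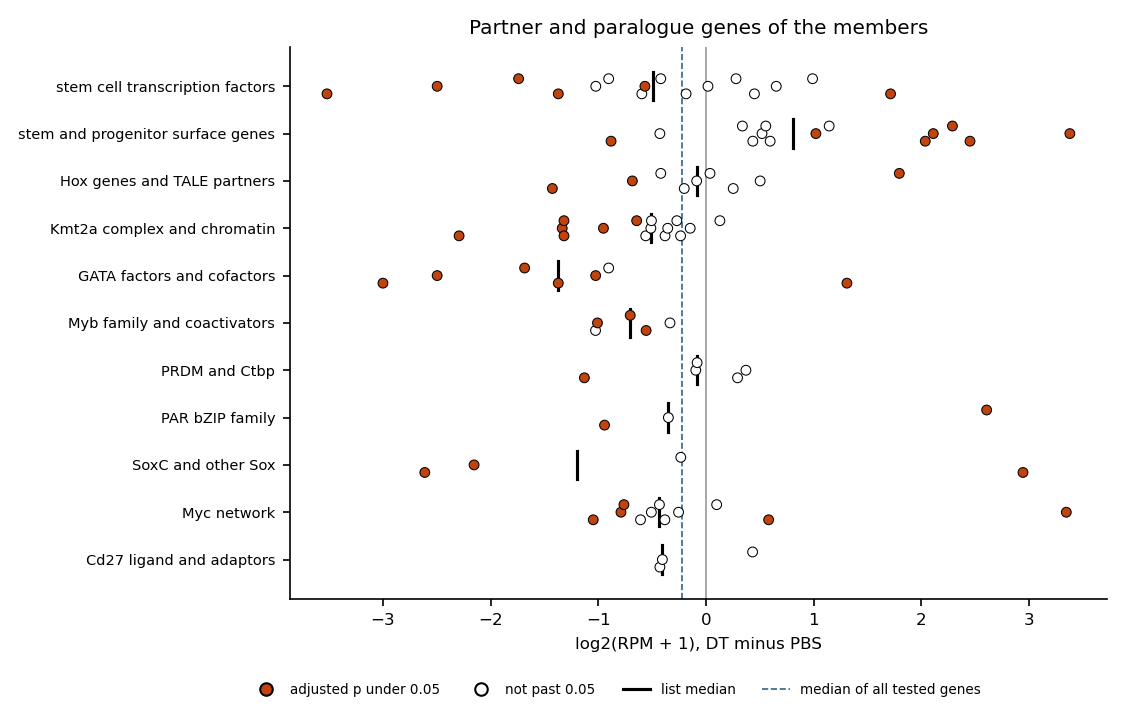
Change in log2(RPM + 1), DT minus PBS, of each tested gene in the partner lists; orange points passed an adjusted p of 0.05 and black bars are list medians. The median of the GATA list lies at -1.37 and that of the surface genes at 0.81, beside -0.23 for all tested genes (dashed).

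In the Myc network, Mxd1, a repressor that takes the place of Myc as cells mature, was at 275, 231 and 218 RPM in DT, against 32.3, 12.7, 27.0 and 23.7 RPM in PBS. It rose by 3.35 on the log2 scale (limma, adjusted p = 2.39e-05), while its relatives Mxd4 and Mga fell by 0.79 and 0.76. This list had 2 rises and 3 falls among 11 tested genes, with 1 rise under 8 alternatives and 1 fall with median-ratio scaling or without DT replicate 3. Among other Sox genes, Sox13 was at 8.88 ± 2.34 RPM in DT (SD, n = 3), against 0.288 ± 0.342 RPM in PBS (SD, n = 4). Sox6, a factor of red cell maturation, was at 0.205 ± 0.313 RPM in DT, against 6.82 ± 3.53 RPM in PBS. Each was tested only through the group where it is high. Sox12, a SoxC relative of Sox4, fell to 1.23 ± 0.191 RPM in DT, against 10.3 ± 5.77 RPM in PBS. With voom on estimated reads 1 of the 2 falls on this list passed, and with a minimum mean of 5 RPM 1 fall and no rise was left among fewer tested genes. Among relatives of Hlf, Nfil3, a repressor that binds the same DNA letters, was at 6.67 ± 1.43 RPM in DT, against 0.278 ± 0.355 RPM in PBS, and was tested only through DT. Tef, a PAR bZIP relative, passed narrowly as a fall (adjusted p = 0.0498, limma), and no fall passed on that list under 14 of 17 alternatives. Of 5 genes tested with Mecom's cofactors, Ctbp1, a corepressor, fell by 1.13 on the log2 scale. Of 3 tested adaptors of Cd27 none passed, and 1 did with median-ratio scaling, quantile normalization or sample weights. Siva1, the most abundant, was at 48.5 ± 3.15 RPM in DT and 65.6 ± 14.9 RPM in PBS, and the Cd27 ligand gene Cd70 was at 0 in every library.

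For each tested member the 3 genes most like it over the 7 libraries were taken among 9238 candidate genes by Pearson's correlation of log2(RPM + 1), as a description. Since the libraries fall into a DT and a PBS cluster, likeness reflects the difference between groups for the called genes. Myb was most like Nol7, Safb and Tcf3 (likeness 0.99 each), Tcf3 being the E2A factor of B-lineage cells. Tcf3 was at 45.7 RPM in DT and 118 RPM in PBS. Sox4 was most like Pum2, Wdr62 and Top2b, Cd27 like Dazap2, Stk17b and Spp1, and Hlf like Zfyve27, Orai2 and Tep1. Gata2 was most like Snhg17, Comtd1 and Qtrt1, Hoxa9 like Champ1, Gpatch4 and Ccdc58, Meis1 like Ing3, Mysm1 and Ppt1, and Mycn like Sergef, Sprtn and Rps6kb2. Of the 3 genes nearest to Gata2, none passed the test of DT against PBS.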

How the data were processed

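RNA of 3 DT and 4 PBS samples was analysed. The labels' protocols give 1 ng of RNA as input, SMARTer Ultra Low chemistry, 14 amplification cycles and 50-base single reads. Per the submitters' processing notes STAR 2.5.3a, Partek and the build mm10 were used; no source names the annotation, the counting settings or the use of strand. The authors deposited 1 table of normalized values called FPKM, which behave as RPM. In each library 1029 to 1206 genes, with spans of very different length, share the most frequent low value, taken as the step. The planned limma test on log2(value + 1) was used. Up to 20 steps, 57.2% to 59.5% of values were whole within 0.02 steps, so no count test was the main one. An offset of 0.0001 was subtracted. Amplified reads are not independent molecules, so floors and reads cover counting error only.

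The fits used limma 3.58.1 in R 4.3.3, DT minus PBS with a variance trend on mean level, and were tested on simulated data. Few genes were changed in the simulation, up and down alike and with a single spread for all libraries. It therefore cannot vouch for the fits on these data, where 32.0% of tested genes passed. Genes needed a mean of 1 RPM to be tested and 5 RPM to be compared for likeness. Members and lists were chosen with earlier results of these data known. Named genes are the members, up to 3 called genes per partner list with the smallest p (the most abundant where none passed), the 2 most abundant of each marker list and the 3 nearest patterns per member. A result that this rule would name is not reported here. Gata1, Tal1, Gata3, Thy1, Egr1, Cd93, Flt1, Hbb-bs, Hba-a1, Alas2, Cd70, Gm26735, Gm26577, Vamp1, Procr and Pknox2, and the Hox counts, were chosen after their values were seen. Siglech, Ccr9 and Il1rl1 were chosen in the same way. Marker sums leave out members. Ratios to the erythroid sum without its risen genes, to the T and natural killer sum without Nkg7 and to the B-lineage sum without Cd79a were added after seeing the data. Azu1 and the name Cd244a were not found. Alternatives covered scaling, pseudocount, filter, variance model, voom on estimated reads, a replicate block and leaving out each library. Same-numbered DT and PBS libraries had correlations of deviations of 0.0103 to 0.0485, so numbers were not taken as pairs.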

Additional observations from a re-analysis of the deposited data

Results flagged for a closer look

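Among 78 named genes, 8 had a PBS library far from the other 3, measured by its gap to the nearest one relative to the range of the group. Chance flags about 1 in 20 groups, a rate that does not hold for genes picked for their likeness to a member: 2 of the 8, Mysm1 (like Meis1) and Tep1 (like Hlf), were named in that way and follow from the choice. The rate also does not hold for genes near the floor in PBS, such as Mecom and Hlf, where reads in 1 library are enough for a flag. PBS replicate 2 was low for Meis1 (4.46 RPM, against 10.7 to 11.7 RPM in the others), Mxd4 (80.9 RPM, against 111 to 115 RPM) and Mysm1 (44.3 RPM, against 73.1 to 77.6 RPM). It was high for Mecom (1.28 RPM, against 0 to 0.0527 RPM), Zfpm1 (7.90 RPM, against 4.19 to 4.59 RPM) and Trib2 (83.3 RPM, against 67.6 to 70.3 RPM). PBS replicate 3 was high for Hlf (1.40 RPM, against 0 to 0.0259 RPM) and Tep1 (25.3 RPM, against 14.7 to 15.5 RPM). The low values of PBS replicate 1 for Gata2 and Hoxa9 did not reach that limit.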

How the results depend on the processing

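The falls of Myb and Sox4 held their call under all 17 alternatives run, with log2 changes of -1.68 to -1.30 and -1.97 to -1.64. Members higher in DT numbered 1 with a minimum mean of 5 RPM, where Hlf was not tested, and 0 to 2 when 1 library was left out (0 without DT replicate 3, 1 without DT replicate 1); members lower numbered 2 to 3 in those fits. The direction of Gata2 turned under median-ratio scaling (0.15), with a replicate block (0.0814, a fit in which PBS replicate 4 has no partner and adds nothing to the change) and without PBS replicate 2, PBS replicate 3, PBS replicate 4 or DT replicate 3 (range over all libraries left out -0.70 to 0.20). All genes lower in DT numbered 1259 with median-ratio scaling, 1688 without a filter, 1574 with the replicate block and 1215 to 3613 when 1 library was left out (1502, 1610 and 1215 without DT replicate 1, 2 and 3). The causes were not tested. The replicate block changed no member's call. Depth limits Mecom and Mycn, at 0 to 50 and 13 to 84 reads per library. Without its most abundant gene, Cd79a, the B-lineage sum left the ratios of Myb overlapping (3.47% to 5.25% in DT, 4.53% to 7.35% in PBS) and those of Sox4 apart (0.496% to 0.676% in DT, 0.912% to 1.42% in PBS).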

Other observations

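Of 26 partner genes under the filter on low values, which were not tested, 2 had DT libraries all above the PBS libraries and 0 had them all below. Among all tested genes, which are higher in level, these shares were 16.1% and 24.7%, so the count is not read as a result. Procr, the endothelial protein C receptor and a surface marker of stem cells, was at 0.891, 0.214 and 0.546 RPM in DT, against 0, 0.0256, 0 and 0 RPM in PBS. Pknox2, a TALE homeobox gene, was at 0.173, 0.428 and 1.72 RPM in DT, against 0, 0.0256, 0.0264 and 0 RPM in PBS. Both were chosen after their values were seen.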
